A study of Mus musculus with 2 samples.

Results

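Ligand-gated transmitter receptors are channels that open when a neurotransmitter binds them, and the genes described here encode their subunits. They were the 60 genes whose symbols name a subunit of the AMPA (Gria), NMDA (Grin), kainate (Grik) and delta (Grid) glutamate receptors, the GABA-A receptors (Gabr), the glycine receptors (Glra, Glrb), the nicotinic acetylcholine receptors (Chrn) or the 5-HT3 serotonin receptor (Htr3), of 43346 mouse genes in the tables. All 60 had a row in both tables. The RNA came from whole midbrains of B6NCrl mice, an inbred C57BL/6N line, taken on postnatal day 0, with no treatment or mutant allele named in the labels. There were 2 libraries, from pup 1 and pup 3, each amplified by a SMART-type protocol from 13 pg of total RNA, an amount the labels equate with 1 cell. The labels give 1 donor record for both pups and no sex, and the libraries are a single group of 2 pups. No condition was compared, and no test over samples was made.

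Excitation in the brain runs mainly through AMPA receptors, which carry fast currents, and NMDA receptors, which need glutamate and glycine together and pass calcium. Inhibition runs through pentameric GABA-A and glycine receptors, usually built from alpha and beta subunits with a gamma subunit in most synaptic GABA-A receptors. Around birth many of these receptors change subunits, and a gene known from young tissue is called neonatal here and its later partner mature.

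Levels are TPM, a relative abundance that divides counts by transcript length, so that genes of a library can be compared. A gene was called detected at a TPM of 1 or more. Of the 60 genes, 24 passed in both pups. Another 8 passed in pup 1 alone, 2 in pup 3 alone and 26 nowhere, and 24 of those 26 had no count in either library. Of the 12144 mouse genes detected in either pup, 22.9% passed in pup 1 alone and 16.3% in pup 3 alone, against 23.5% and 5.88% of the 34 subunits. The share detected in both pups was 40.0%, against 31.8% of the 21474 protein-coding genes and 17.0% of all mouse genes. For receptors that act through G proteins, the list of metabotropic glutamate, GABA-B, muscarinic and serotonin receptors, it was 7 of 27, or 25.9%. These shares are descriptions with no test. The tables held 26583225 expected counts for pup 1 and 33142647 for pup 3, and the subunits took 0.242% and 0.270% of those on mouse genes. For a subunit at 0, an upper limit of 3 counts corresponded to a TPM of 0.0410 to 0.297 in pup 1 and 0.0282 to 0.212 in pup 3, by the gene's length. Such limits cover counting error only, since reads copied from few molecules are not independent.

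Markers of neurons and of brain regions were checked. Each of the 14 pan-neuronal genes passed 1 TPM in both libraries. Of 13 midbrain markers 3 were detected in both pups, namely Th, the dopamine synthesis enzyme (46.9 and 38.5 TPM in pup 1 and pup 3), Gata3 (29.5 and 66.0) and Nr4a2 (3.08 and 57.0), another 4 passed in pup 1 alone and 2 in pup 3 alone, and Foxa2 and Gata2 were at 0 in both. The share in both pups was 23.1%, below that of protein-coding genes and of the cortical projection neuron and cerebellar granule cell lists, each with 2 of 7 (28.6%), led by Neurod6 (46.5 and 28.1 TPM) and Pax6 (23.0 and 15.8). In these lists too, other markers were at 0 in both pups. They were Emx1, Tbr1, Fezf2 and Slc17a7 of the cortical list and Gabra6, Atoh1 and Fat2 of the granule cell list. By the share detected in both pups, the midbrain markers thus did not stand out from those of other regions. In at least 1 pup, 9 of 13 midbrain markers were detected, against 3 of 7 in the cortical and 3 of 7 in the granule cell list. Summed TPM was 136 and 172 for the longer midbrain list, 53.3 and 35.5 for the cortical list and 36.4 and 56.2 for the granule cell list. Whether the lists differ was not tested. In RNA of a whole tissue, fewer cells of a type and less RNA per cell cannot be told apart.

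**Figure D1:**
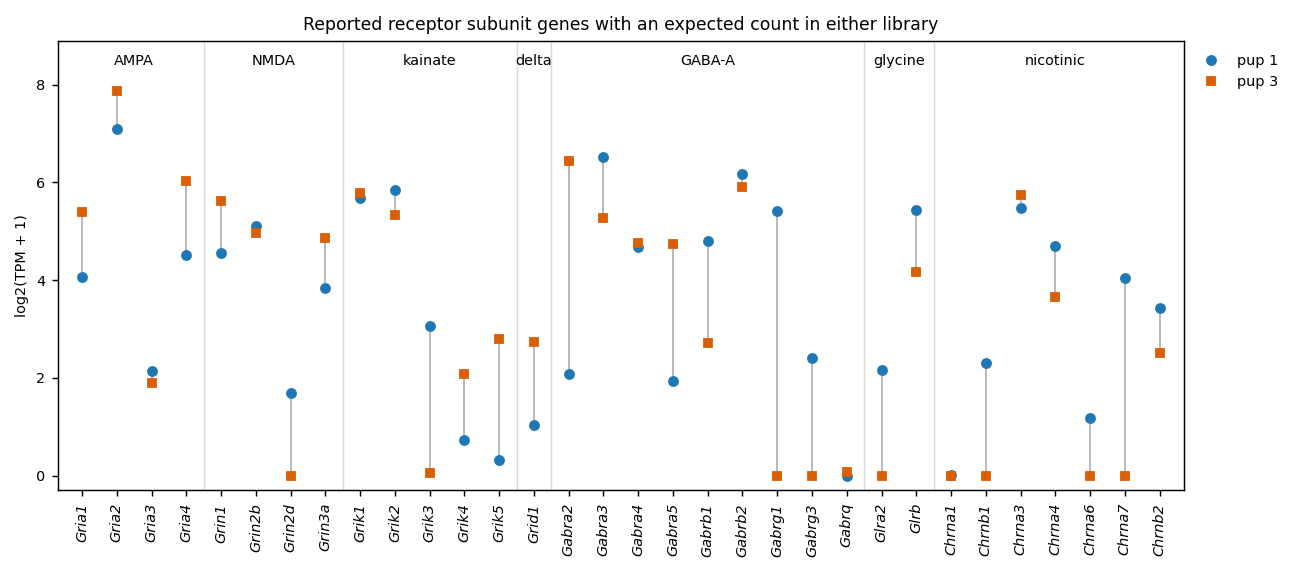
Level of the 32 reported subunit genes with a count in either library, as log2(TPM + 1), by receptor class. Circles are pup 1, squares pup 3, and the line joins the pair. Gabrg1, Gabra2 and Chrna7 lie farthest apart, and Grik1, Gabra4 and Grin2b nearly coincide.

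The GABA-A genes had the highest summed level of the 8 classes, 446 TPM in pup 1 and 502 in pup 3 (474 ± 39.3, mean ± SD, n = 2). The AMPA genes followed with 177 and 340 TPM (258 ± 116), then the kainate genes with 116 and 102 (109 ± 9.39) and the NMDA genes with 71.5 and 106 (88.9 ± 24.7). The nicotinic genes summed to 98.9 and 68.9 TPM (83.9 ± 21.2), and the glycine genes to 45.6 and 17.1 (31.3 ± 20.1), while both 5-HT3 genes had no counts. The kainate, NMDA and nicotinic sums changed order between the pups, so their ranking does not exceed the spread between pups.

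All 4 AMPA genes were detected in both pups. Gria2 (chr3:80681450-80802835, minus strand, GRCm38), whose subunit makes the channel nearly impermeable to calcium once its RNA is edited, had 135.5 TPM in pup 1 and 232 in pup 3 (184 ± 68.5, n = 2). It was the highest of all 60 genes in both libraries and ranked 906 among mouse genes by mean TPM. Gria4, of channels with fast kinetics, had 21.9 and 64.1 TPM (43.0 ± 29.8), and Gria1, the subunit best known from plasticity in the forebrain, had 15.7 and 41.1 (28.4 ± 17.9). Gria3 was the lowest, at 3.39 and 2.71 TPM (3.05 ± 0.48). Gria2 thus held 76.8% and 68.3% of AMPA subunit RNA (72.5% ± 5.99), Gria4 12.4% and 18.8%, Gria1 8.91% and 12.1%, and Gria3 1.92% and 0.797%. By the TPM of whole genes, the order Gria2, Gria4, Gria1, Gria3 was the same in both pups. In pup 3, however, 50.95 TPM of Gria4 was on Gria4-203, a transcript of 2338 bases. Its transcripts Gria4-201 and Gria4-202 had 6.57 TPM each there, and Gria1-201 alone had 24.6. The place of Gria4 above Gria1 in pup 3 thus rests on Gria4-203. Gria2, Gria4 and Gria1 were each higher in pup 3, and Gria3 was slightly higher in pup 1. By counts scaled to library totals, the AMPA genes differed by 1.46-fold to 1.88-fold between pups, less than by TPM for Gria1 and Gria4.

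**Figure D2:**
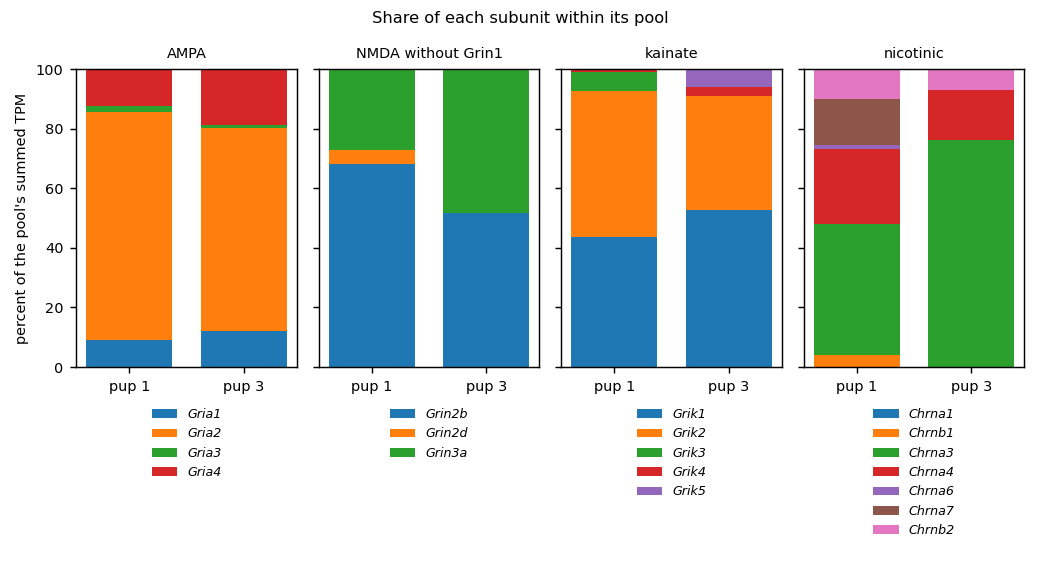
Percent of a pool's summed TPM held by each subunit gene, pup 1 and pup 3, for the AMPA, NMDA (without Grin1), kainate and nicotinic pools. Gria2 held most of the AMPA pool and Chrna3 the largest part of the nicotinic pool in both pups, and the Grin3a share was 27.2% in pup 1 and 48.4% in pup 3.

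Each AMPA gene carries a pair of mutually exclusive exons of 115 bases, flip and flop, that encode part of the ligand-binding domain and set how fast the channel desensitizes. Flip is known as the form of young brain and flop as a form that rises later. The exons of Gria2 and Gria1 are shown because the transcript shares below turn on them. They were read from GENCODE M21 transcripts on GRCm38, 5′ to 3′ on the gene's strand. Capitals mark bases that differ between flip and flop of the same gene.
Gria2 flip, chr3:80690404-80690518, minus strand: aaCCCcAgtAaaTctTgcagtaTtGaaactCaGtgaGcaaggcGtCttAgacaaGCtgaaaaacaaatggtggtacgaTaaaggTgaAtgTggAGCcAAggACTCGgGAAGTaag
Gria2 flop, chr3:80691320-80691434, minus strand: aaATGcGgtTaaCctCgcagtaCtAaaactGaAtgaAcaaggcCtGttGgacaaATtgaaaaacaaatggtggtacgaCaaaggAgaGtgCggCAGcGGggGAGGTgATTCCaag
Gria1 flip, chr11:57310608-57310722, plus strand: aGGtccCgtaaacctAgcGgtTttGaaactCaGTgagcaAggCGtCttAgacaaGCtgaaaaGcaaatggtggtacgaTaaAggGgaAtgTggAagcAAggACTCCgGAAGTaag
Gria1 flop, chr11:57309769-57309883, plus strand: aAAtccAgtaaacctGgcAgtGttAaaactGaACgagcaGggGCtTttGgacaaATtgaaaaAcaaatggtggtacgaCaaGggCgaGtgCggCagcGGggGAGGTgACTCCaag
In both genes flip and flop differed at 36 of 115 bases, an identity of 68.7%. The same form was more alike across the genes, at 88.7% between the flip exons of Gria1 and Gria2 and 87.8% between their flop exons. The runs of capitals are densest at the 3′ end of the exon.

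Gria2 had 8 annotated transcripts. Gria2-202 (ENSMUST00000107745.3), which holds the flip exon, led in both pups with 72.9% and 60.9% of the gene's TPM (66.9% ± 8.52, n = 2). Gria2-201 (ENSMUST00000075316.5), which holds the flop exon, had 8.48% and 1.58%. Counting only transcripts with 1 of the exons, flip made up 89.6% of Gria2 in pup 1 and 97.5% in pup 3 (93.5% ± 5.58). By expected counts, which are not divided by length, the flip share was 76.7% and 93.7% (85.2% ± 12.0). In the annotation the flop transcript ends in an exon of 7265 bases and the flip transcript in one of 920 bases. Reads in the longer 3′ end can therefore only be given to the flop transcript, so the split reads the 3′ end as well as the alternative exon.

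The remaining Gria2 RNA differed between the pups. Gria2-206 (ENSMUST00000194383.1), an annotated retained-intron form that stops before either exon, took 3.15% in pup 1 and 34.1% in pup 3. Gria2-208 (ENSMUST00000195062.1), another retained-intron form, took 8.69% and 0%. Gria2-203, annotated for nonsense-mediated decay and holding both exons, took 4.36% and 0%, Gria2-204 2.39% and 0.64%, Gria2-205 0.03% and 2.82%, and Gria2-207 was at 0 in both. Forms with neither or both exons made up 18.6% of Gria2 TPM in pup 1 and 37.6% in pup 3. The flip transcript therefore led among those with 1 of the exons, in a split that reads the 3′ end as well. A sizeable share of the RNA does not show the choice of exon.

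**Figure D3:**
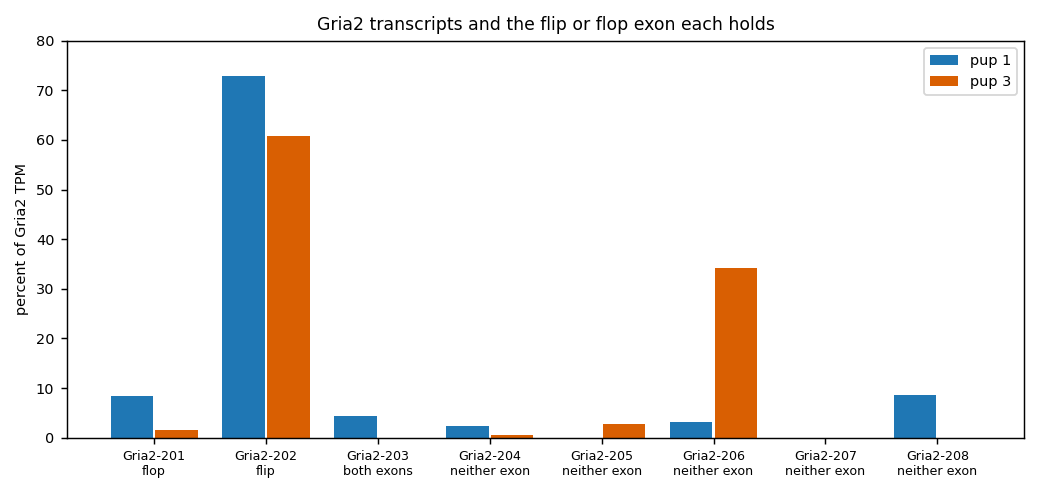
Percent of Gria2 TPM on each of its 8 annotated transcripts in pup 1 and pup 3, with the alternative exon each holds. Gria2-202, the flip form, was the tallest bar in both pups, and Gria2-206 stood at 3.15% in pup 1 and 34.1% in pup 3.

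Flip did not lead in every AMPA gene. Gria1 had 52.8% flip in pup 1 and 99.6% in pup 3 (76.2% ± 33.1, n = 2), from 737 flip and 642 flop counts in pup 1 and 3056 and 12.6 in pup 3. These shares leave out Gria1-205, a processed transcript of 531 bases with neither exon. It held 0% of Gria1 TPM in pup 1 and 39.8% in pup 3, there on 4.98% of the gene's expected counts. The Gria1 flip and flop transcripts end in exons of nearly equal length, 2802 and 2801 bases, so this split does not read the 3′ end. They are 5546 and 5399 bases long in full, so they also differ outside these exons. The split can therefore read those other bases as well as the alternative exon. For Gria4, all 1906 counts of pup 1 were on the flop transcript. In pup 3 its flip and flop transcripts were given 800 counts each, an even split with wide deposited intervals, and 79.5% of its TPM was on Gria4-203, a shorter form with neither exon. The Gria4 flip transcript also has another length in M21 than in the files, so its structure in the files was not read. For Gria3, all 280 expected counts of pup 1 were on forms with neither exon or with both. In pup 3, 106 were on the flop transcript Gria3-202 and none on a flip transcript. By posterior mean TPM, flip made up 97.8% of the Gria3 forms with 1 of the exons in pup 1 and 23.7% in pup 3. The Gria3 split thus changed with the measure.

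AMPA receptors travel with auxiliary subunits that set their trafficking and gating. Of 14 such genes, 9 were detected in both pups, and Olfm2 (215 and 205 TPM), Olfm1 (144 and 135), Cacng4 (54.2 and 66.3) and Cnih2 (41.6 and 48.3) were the highest by mean TPM. Cacng2, or stargazin, had 0.66 TPM in pup 1 and 19.6 in pup 3, Cacng3 had 78.1 and 0, and Cacng7 was at 0 in both. The 3 genes of the RNA-editing deaminase family were detected in both pups. Adarb1, which edits the Gria2 pore codon, had 12.1 and 28.6 TPM, Adar had 5.18 and 25.7, and Adarb2, a relative with no known editing activity, had 5.80 and 8.35. Editing itself was not measured.

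NMDA receptors join the obligatory Grin1 subunit, which binds glycine, with Grin2 subunits, which bind glutamate, or with Grin3 subunits, which lower calcium flow. Grin1 (chr2) had 22.6 TPM in pup 1 and 48.1 in pup 3 (35.3 ± 18.1, n = 2). Grin2b, the Grin2 gene of the embryonic and newborn brain, had 33.4 and 30.1 (31.7 ± 2.34), the smallest relative spread of the NMDA genes. Grin3a, known for a peak in early postnatal life, had 13.3 and 28.2 (20.8 ± 10.5). Grin2d, an early subunit of the brainstem and midbrain, had 2.23 TPM from 194 counts in pup 1 and none in pup 3. Grin2a and Grin2c, which rise after birth, and Grin3b, known from motor neurons, had no counts in either pup.

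Without Grin1, Grin2b held 68.2% and 51.6% of NMDA subunit RNA (59.9% ± 11.8) and Grin3a 27.2% and 48.4% (37.8% ± 15.0). Grin3a was thus 0.399 times Grin2b in pup 1 and 0.939 times in pup 3, close to parity in the latter. Summed Grin2 and Grin3 RNA was 2.17 and 1.21 times Grin1. Although Grin1 is in every NMDA receptor, its RNA did not exceed the sum of its partners in either pup.

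Nearly all Grin1 RNA was on 1 of 14 annotated transcripts, Grin1-205 (ENSMUST00000114312.1), with 97.8% in pup 1 and 89.2% in pup 3. Grin1 is spliced at a 63-base exon near the start, the N1 cassette, and at a 111-base exon near the end, the C1 cassette, and both are shown because neither is in that transcript.
Grin1 N1 cassette, chr2:25311343-25311405, minus strand: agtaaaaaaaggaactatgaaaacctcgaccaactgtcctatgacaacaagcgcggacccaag
Grin1 C1 cassette, chr2:25294438-25294548, minus strand: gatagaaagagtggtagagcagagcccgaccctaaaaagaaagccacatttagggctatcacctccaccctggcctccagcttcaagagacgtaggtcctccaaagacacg
The N1 cassette is known to change proton sensitivity and deactivation, and the C1 cassette carries a signal that keeps the subunit in the endoplasmic reticulum. Of the 8 full-length Grin1 transcripts, 4 hold N1 and 4 hold C1. Transcripts with N1 had 2.17% of full-length TPM in pup 1, on 29.6 counts, and 0% in pup 3. Transcripts with C1 had no counts in either pup, of 1375 and 3674 counts on full-length forms. The leading transcript also uses the shorter of the annotated last exons, 948 bases against 1304, a start 356 bases further on that changes the C-terminal end. The leading transcript of Grin1 was therefore the same in both pups.

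All 5 kainate genes had counts, but only Grik1 and Grik2 were detected in both pups. Grik1, the subunit GluK1, had 50.7 TPM in pup 1 and 53.9 in pup 3 (52.3 ± 2.28, n = 2), and Grik2, the subunit GluK2, had 56.7 and 39.2 (48.0 ± 12.4). They led in opposite order in the pups, with Grik2 higher in pup 1 and Grik1 in pup 3, and together they held most of the pool. Grik3 had 7.32 TPM from 1058 counts in pup 1 and 0.04 from 9 counts in pup 3. Grik4 and Grik5, the high-affinity subunits that form channels only with Grik1 to Grik3, had 0.66 and 3.23 TPM and 0.25 and 5.96 TPM. Grik1 to Grik3 together were 126 times Grik4 and Grik5 in pup 1 and 10.1 times in pup 3. The 5 genes had no common direction between the pups. Of the auxiliary subunits, Neto2 had 9.19 and 20.04 TPM and Neto1 3.41 and 0.

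Delta receptors bind cerebellins, secreted bridges to the presynaptic side, more than they act as glutamate channels. Grid1 had 1.05 TPM in pup 1 and 5.70 in pup 3 (3.38 ± 3.29, n = 2), from 70 and 766 counts. Of the cerebellins, Cbln2 was close between the pups (62.6 and 64.6 TPM), Cbln4 had 1.95 and 12.0, Cbln1 had 0.12 and 9.72, and Cbln3, of cerebellar granule cells, had 0 and 0.01. Cbln1, Cbln4 and Grid1 were thus all higher in pup 3.

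Of the 19 GABA-A genes, 9 were detected in both pups, 2 more in pup 1 and 8 nowhere. Among the alpha genes, which set the kinetics and the drug response of the receptor, Gabra3 had 91.4 TPM in pup 1 and 37.7 in pup 3 (64.5 ± 38.0, n = 2). Gabra2, an embryonic and perinatal subunit, had 3.24 and 85.2 (44.2 ± 57.9). Gabra3 led Gabra2 in pup 1 and Gabra2 led Gabra3 in pup 3. Gabra5, of extrasynaptic receptors and high in the newborn, had 2.81 and 25.8 (14.3 ± 16.3), higher in pup 3 as Gabra2 was. Gabra4 had 24.7 and 26.2 (25.5 ± 1.06), the smallest relative spread of these 4 genes. Gabra6, of cerebellar granule cells, had no counts.

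Of the beta genes, whose subunits line the GABA site and reach the scaffold, Gabrb2 had 71.6 and 59.3 TPM (65.4 ± 8.70, n = 2). Gabrb2-202, a processed transcript of 658 bases, held 35.65% and 18.7% of Gabrb2 TPM, and 7.38% and 4.32% of its expected counts. Gabrb1 had 26.9 and 5.56 (16.3 ± 15.1), lower than Gabrb2 in both pups.

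Of the gamma genes, which direct the receptor to synapses, Gabrg1 had 42.0 TPM from 3195 counts in pup 1 and no count in pup 3. Gabrg3 had 4.32 TPM from 680 counts in pup 1 and none in pup 3. Both genes were thus detected in pup 1 alone. Gabrd, of extrasynaptic receptors, Gabre, Gabrp and the rho genes Gabrr1, Gabrr2 and Gabrr3, known from retina, had no counts. Gabrq had 7 counts in pup 3, a TPM of 0.06, and none in pup 1.

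On the inhibitory side of the synapse, all 8 scaffold and assembly genes were detected in at least 1 pup and 5 in both. Gphn, the gephyrin scaffold under glycine and GABA-A receptors, had 123 and 97.8 TPM, Clptm1 19.4 and 125, and Nlgn2 16.0 and 63.3. Lhfpl4, a partner of GABA-A receptors, had 27.6 and 0. Of 16 excitatory scaffold genes 9 were detected in both pups, with Nlgn3 (69.4 and 125 TPM), Dlg2 (10.6 and 140) and Nlgn1 (13.8 and 54.8) the highest, and Dlg4, or PSD-95, at 40.1 and 0.06.

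For the glycine receptor, Glrb, the structural beta subunit that binds gephyrin, had 42.1 TPM in pup 1 and 17.1 in pup 3 (29.6 ± 17.7, n = 2). Glra2, the alpha subunit of the embryo, had 3.48 TPM from 173 counts in pup 1 and none in pup 3. Glra1, the adult alpha, Glra3 and Glra4 had no counts. Glrb RNA was 12.1 times the summed alpha RNA in pup 1, and in pup 3 no alpha gene had a count, so no ratio is given. Its transcripts also differed, with Glrb-201, which is coding, at 75.8% and 0%, and Glrb-204, annotated for nonsense-mediated decay, at 0% and 100%.

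Of the 11 neuronal nicotinic genes, 3 were detected in both pups. Chrna3 (chr9:55010111-55026562, minus strand), a subunit of ganglia and the habenula, had 43.5 TPM in pup 1 and 52.6 in pup 3 (48.0 ± 6.40, n = 2). Chrna4 and Chrnb2, which build the main high-affinity nicotine receptor of the brain, had 25.0 and 11.6 (18.3 ± 9.45) and 9.73 and 4.73 (7.23 ± 3.54). The ratio of Chrna4 to Chrnb2 was 2.57 and 2.46, steady between the pups although both genes were lower in pup 3. Chrnb2 shares 1365 exon bases with Adar on the opposite strand in M21, and the use of strand in counting is not given in the sources used here. Chrna7, of the homomeric calcium-permeable receptor, had 15.5 TPM from 502 counts in pup 1 and none in pup 3, and Chrna6, of dopamine neurons, had 1.25 from 57 counts and none.

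Chrna3 led the class in both pups with 44.0% and 76.3% of nicotinic RNA, and Chrnb4, its usual partner, and Chrna5, which lie beside it on chr9, had no counts. Chrna2, Chrna9, Chrna10 and Chrnb3 had none either. Chrna3 was 4.47 and 11.1 times the summed Chrnb2 and Chrnb4 RNA. Of the muscle genes, Chrnb1 had 3.97 TPM from 133 counts in pup 1 and none in pup 3, Chrna1 had 1 count in pup 1, and Chrnd, Chrne and Chrng had none. The 9 skeletal muscle markers summed to 26.0 TPM in pup 1 and 56.9 in pup 3, mainly Acta1 (25.8 and 35.0) and Des (0 and 22.0), with Myog, Myod1, Myh3 and Mylpf at 0 in both. Of 6 genes for receptor assembly, 3 were detected in both pups, led by Tmem35a (83.5 and 215 TPM), Ly6h (48.6 and 159) and Ric3 (55.5 and 55.9). Musk and Rapsn, of the muscle endplate, had 0 and 18.2 TPM and 0 and 6.89 TPM. The part of muscle RNA in the Chrnb1 value was not tested.

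Htr3a and Htr3b, the subunits of the serotonin-gated channel, had no counts in either pup. An upper limit of 3 counts allowed 0.0928 TPM for Htr3a in pup 1 and 0.0664 in pup 3.

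Neonatal and mature partners were set against each other in 5 pairs, as the log2 ratio of TPM + 1. A direction was named where both pups had the same sign and the deposited TPM intervals did not overlap in either pup. The bounds enclose the deposited posterior mean TPM, and the TPM itself can lie just outside them. In 2 pairs the neonatal gene was higher, in none the mature gene, 2 pairs had no shared direction and 1 pair was at 0. Grin2b over Grin2a was 5.10 in pup 1 and 4.96 in pup 3 (5.03 ± 0.10, n = 2). Since Grin2a was at 0, the pseudocount sets this size, and the mean was 8.31 with 0.1 and 2.06 with 10. Against a limit of 3 counts for Grin2a, Grin2b was at least 605-fold higher in pup 1 and at least 762-fold higher in pup 3. Grin3a over Grin3b was 3.84 and 4.87 (4.35 ± 0.73), with a mean of 7.61 and 1.58 at those pseudocounts, and at least 140-fold and at least 416-fold by the same limit. These 2 NMDA pairs thus pointed the same way in both pups. The folds against a limit of 3 counts cover counting error only. Because Grin3b is known from motor neurons, age and region cannot be told apart for its pair.

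Grin2d over Grin2c was 1.69 in pup 1 and 0 in pup 3, and Glra2 over Glra1 was 2.16 and 0, both because the neonatal gene had no count in pup 3. Chrng and Chrne, the fetal and adult muscle subunits, were both at 0.

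**Figure D4:**
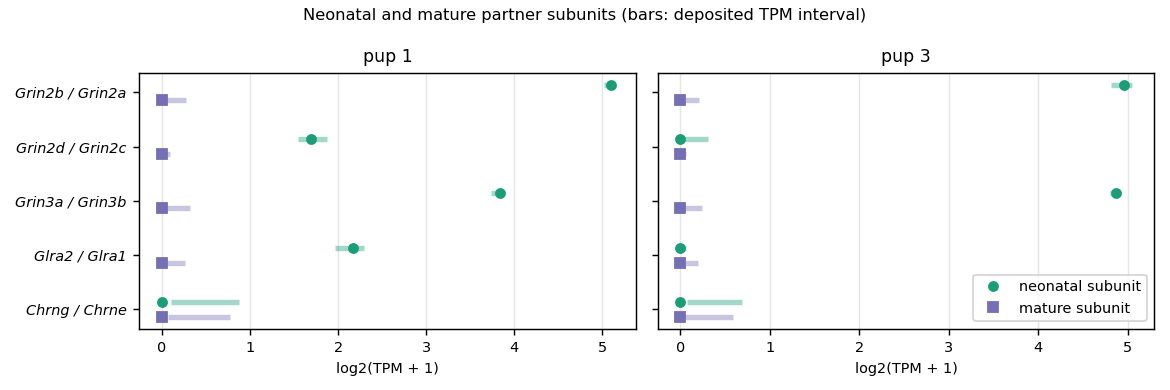
Level of the neonatal (circle) and mature (square) gene of each of 5 pairs in pup 1 and pup 3, as log2(TPM + 1), with the deposited TPM interval as a bar. Grin2b and Grin3a sat far right of their partners in both pups.

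The differences between the libraries were sized with counts. Count ratios were scaled by the libraries' totals on mouse genes and given an exact 95% interval (Clopper-Pearson). A gene was past the size rule where that interval lay beyond 4-fold at both ends. This compares 2 libraries, has no replicate check and covers counting error only. Of the 36 subunits with a count in either library, 15 were past it, 41.7%, and of all 14605 such mouse genes 41% were. Higher in pup 1 were 10 subunits against a background of 23.1%, and higher in pup 3 were 5 against 17.9%. The subunits were therefore near the background.

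The share past the rule was smaller at higher levels. It was 12 of 16 subunits at a mean TPM of 1 to under 20, with a background of 70.3%. At 20 to under 50 TPM it was 2 of 11, with a background of 36.3%, and at 50 or more it was 0 of 6, with a background of 9.97%. By class it held for none of the 4 AMPA genes, 1 of 4 NMDA genes with a count, 3 of 5 kainate, 1 of 2 glycine and 3 of 7 nicotinic genes. Across the 34 subunits detected in either pup, Pearson's r of log2(TPM + 1) between pups was 0.58 and Spearman's rho 0.56, against 0.47 and 0.49 over 12144 genes. Across the 24 subunits detected in both pups they were 0.48 and 0.46, against 0.73 and 0.70 over 7389 genes, so the order of subunits and background turned with the set. These correlations are across genes, which are not independent replicates.

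Among those higher in pup 1 were 7 genes without a count in pup 3, given with the lower end of the 95% interval. They were Gabrg1 (3195 and 0 counts, at least 1077-fold), Gabrg3 (680 and 0, at least 229-fold) and Chrna7 (502 and 0, at least 169-fold). Next came Grin2d (194 and 0, at least 64.8-fold) and Glra2 (173 and 0, at least 57.8-fold). The last were Chrnb1 (133 and 0, at least 44.3-fold) and Chrna6 (57 and 0, at least 18.6-fold). With counts in both libraries, Grik3 was 146-fold higher in pup 1 (95% interval 76.8 to 321). Higher in pup 3 were Gabra2, 29.5-fold (24.7 to 35.7), Grik5, 27.2-fold (16.3 to 48.9), Gabra5, 10.3-fold (8.53 to 12.5), Grid1, 8.79-fold (6.88 to 11.4), and Grik4, 5.52-fold (4.22 to 7.33). Just outside the rule lay Gabrb1, 4.31-fold higher in pup 1 (3.84 to 4.85), and just inside it Grik4. The 7 genes with a bound had no count in pup 3, and no subunit past the rule lacked a count in pup 1. Of all genes with a count in either library, 15.9% were past the rule with no count in pup 3 and 9.44% with no count in pup 1.

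**Figure D5:**
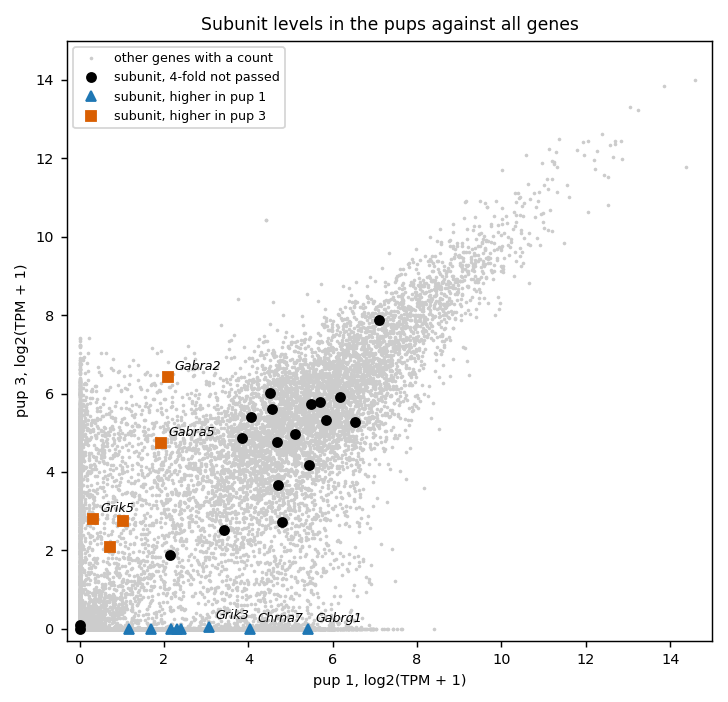
Level in pup 1 against pup 3, as log2(TPM + 1), for other genes with a count (grey) and the 32 reported subunits. Triangles are the 8 reported subunits over 4-fold higher in pup 1, squares the 5 higher in pup 3 and black circles the rest. The 4 reported subunits with a mean TPM of 50 or more are all black circles.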

How the data were processed

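RNA of 1 midbrain per pup was measured in 2 libraries. Per the labels' protocols it was extracted with a mirVana kit, kept above the size of small RNA, mixed with spike-in RNAs and amplified. Per the file headers the build was mm10 with GENCODE M4. Aligner, quantifier and strand use were not given in the sources used here. What the authors deposited were expected counts, TPM, FPKM, the percent of a gene on each transcript and interval bounds of TPM, used as a score of precision whose level is not stated. Expected counts were rounded for count ratios. Gene names came from a symbol table (42462 of 43346 genes matched), and coordinates, exons and sequences from GENCODE M21. Of 184 transcripts of these genes, 141 had the same length in M21 and 13 were not in it. Flip and flop were told apart by translating the exons. The size rule was tested on simulated data, which held counting error only. Every member entered the counts, and the values of some, with the pairs and pools that hold them, are not reported here. The genes, pairs, lists and named-gene rules were chosen with earlier results of these data known, and the midbrain list was added last. From each other list, up to 4 genes by mean TPM and those at 0 in both pups were eligible to be named. Others named from these lists, such as Cacng2, Cacng3, Lhfpl4, Dlg4, Neto1, Musk and Rapsn, were chosen after their values were seen. No p-value is given. Python 3.11.15, scipy 1.17.1, biopython 1.88, edgeR 4.0.16 and DESeq2 1.42.0 (scaling factors only) were used.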

Additional observations from a re-analysis of the deposited data

How the results depend on the processing

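Alternatives were another detection limit, fold, scaling (edgeR TMM, DESeq2 size factors), pseudocount, unit or posterior mean, and each pup alone. Of 63 values under alternatives that keep both pups, 51 moved by less than the spread between pups or, for counts, by at most 1.5 times, 12 moved further and none reversed. Another 36 values leave out a pup. For a sum, share or ratio of 2 pups such a value always lies within 1 SD of the mean and says nothing on stability. Detection in both pups was 24 genes, 16 at a TPM of 10 or more, 26 at 0.1 or more or by 10 counts, and 26 to 32 with 1 pup left out. With TPM rescaled over nuclear mouse genes, the kainate sum was 121 TPM and the GABA-A sum 526. With 1 pup left out, 2 to 4 pairs had a direction, against 2 with both, since only that pup had to show it. By expected counts the mean flip share of Gria2 was 85.2%. The size rule was passed by 15 genes with each scaling, of which 10 were higher in pup 1 by totals and 11 by TMM or by size factors. It needs both libraries, so it was not run with a pup left out. No paired analysis was possible because there is 1 group. Depth limits what can be said of genes at 0, and whether a gene at 0 in 1 pup was present in its RNA was not tested.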

Other observations

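Many subunit genes lie in clusters on the genome. With a gap of at most 1000000 bases between neighbours, 29 of the 60 genes fell into 11 clusters (GENCODE M21, GRCm38). In 7 of them neighbours differed in where they were detected, in 1 all were detected in both pups and in 3 none was. Clusters of other genes were not counted, so these numbers are not read as a trait of the clusters. In the chr5 cluster, Gabrg1 (42.0 and 0 TPM in pup 1 and pup 3) and Gabrb1 (26.9 and 5.56) were higher in pup 1, Gabra2 (3.24 and 85.2) in pup 3, and Gabra4 (24.7 and 26.2) was level. In the chr7 cluster, Gabra5 had 2.81 and 25.8 TPM and Gabrg3 4.32 and 0. On the X chromosome Gabra3 (91.4 and 37.7) lies between Gabre and Gabrq, which were at or near 0. Gria2 and Glrb, which are neighbours on chr3, were the only cluster detected whole, with Gria2 higher in pup 3 and Glrb in pup 1. These are descriptions of levels, and shared control was not tested.

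Among 19 subunit genes with 2 or more transcripts and 50 or more counts in each library, the leading transcript by TPM was the same in both pups for 13. It differed for 6, among them Glrb, Gria3, Gria4 and Grik2. By expected counts it was the same for 14. The share over all genes was not taken, so these counts are not read as a trait of the subunits. In Grik2, ENSMUST00000105487.3 had 51.7% and 10.1%, and Grik2-201 had 26.95% and 71.5%.

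Channels gated by ATP, the P2X receptors, form another class. Of 7 P2rx genes 1 was detected in both pups, P2rx6 (1.09 and 3.34 TPM). P2rx4 (35.6 and 0), P2rx2 (32.5 and 0) and P2rx5 (0 and 29.9) were each in 1 pup only. Of the 12144 mouse genes detected in either pup, 22.9% passed in pup 1 alone and 16.3% in pup 3 alone. With only 4 P2rx genes detected in either pup, these counts are not read as a trait of the class.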
